A study of Homo sapiens with 12 samples.

Results

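NFAT5 and PLBD2 are protein-coding human genes whose messages carried clusters of crosslinked RNA at many places in the 3' UTR, mapped by PAR-CLIP, a method in which 4-thiouridine in living cells is crosslinked by light to the protein that binds it. They were chosen by their counts of clusters found in both replicates of a protein in these same libraries, so every count of clusters or sites here is a description and carries no test. Members were all deposited clusters on the coding strand within either gene in GENCODE release 44, with clusters that overlapped by at least 1 nt joined into a site. This gave 124 clusters in 29 sites for NFAT5 and 150 clusters in 16 sites for PLBD2, out of 102250 clusters and 45174 sites in the whole series. No cluster lay on the opposite strand of either gene. With 18 exonic sites found in both IGF2BP1 replicates when the clusters of 1 protein were joined at a time, NFAT5 was exceeded by 2 protein-coding genes and equalled by 1, and with 12 such IGF2BP2 sites PLBD2 was exceeded by 1 and equalled by 1.

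All libraries came from HepG2 cells, an established line from a human liver tumour, labelled wildtype. All 12 shared the same treatment, with 8 plates of cells seeded per replicate, 14 h of labelling with 4-thiouridine and crosslinking at 365 nm, followed by digestion with RNase T1 and immunoprecipitation of an endogenous protein. In all, 6 groups of 2 replicates each were deposited, for IGF2BP1, IGF2BP2, IGF2BP3, METTL1 and WDR4, with a second IGF2BP3 pair labelled bio2. The 8 IGF2BP libraries are compared below with the 4 METTL1 and WDR4 libraries. The labels name no library without antibody, and the files give positions only, with no read number or score, so read depth and crosslinking strength at a site are unknown.

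The IGF2BP proteins are a family built from RNA recognition motifs and KH domains, and they are known for binding the 3' UTRs of messages and for affecting how long these last. They are known to favour short elements in which CAU is followed by A, C or U, called CAU elements here. METTL1 is the catalytic subunit and WDR4 the partner subunit of the methyltransferase that places N7-methylguanosine (m7G) in tRNA and at internal positions of some messages. In the study the IGF2BP proteins are examined as readers of this mark and METTL1 with WDR4 as its writer. NFAT5 is the transcription factor that switches on genes for osmolyte uptake under hypertonic stress, and PLBD2 is a lysosomal protein of the phospholipase B-like family.

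Sequences of sites that had clusters of all 5 proteins are given first, because they show what the sites share. Each is the window of at most 30 nt within the site that most libraries covered, on the plus strand of hg38, with T for U and with CAU elements in capitals. Sites are named by the distance of their midpoint from the stop codon in nt of 3' UTR.
NFAT5 1759, chr16:69698100-69698129: ttttcttccctccacctccacccctttctt
NFAT5 3470, chr16:69699805-69699834: cttatctctttctctctctctctctctctc
NFAT5 3763, chr16:69700114-69700143: cctcccttcttcccttcCATCtccccctcc
NFAT5 3842, chr16:69700159-69700188: tttctccttcccttattcctccctccctcc
NFAT5 7407, chr16:69703731-69703760: taCATTcctcccttcttattccctttttct
NFAT5 7556, chr16:69703882-69703911: cttactCATAttctccctccctctcccctt

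The NFAT5 windows in the 3' UTR were mostly C and U. The corresponding PLBD2 windows, below, were mostly a tetranucleotide repeat of the type CCAT, in which CAU elements follow each other.
PLBD2 967, chr12:113389586-113389615: tcttcCATCATCCATCCATCCATCtaccta
PLBD2 1524, chr12:113390144-113390173: ttcttatctatctatcaccCATCcacccac
PLBD2 1654, chr12:113390251-113390280: CATCCATCCATCcacccacccaatCATCta
PLBD2 1723, chr12:113390317-113390346: tcaccCATCcaccCATCCATCCATCcaatc
PLBD2 1821, chr12:113390405-113390434: tccaccCATTcactcctcCATCcacctacc
PLBD2 2105, chr12:113390514-113390543: tttttcCATCCATCtaccCATCcaccCATT
PLBD2 2391, chr12:113391012-113391041: cCATCCATTCATTCATAtcCATCCATCcat
PLBD2 2520, chr12:113391144-113391173: atacaaaaaaaaaggctctctccctgtctg

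Libraries held between 4581 and 15701 clusters. Both bio2 libraries stood apart by width, with a median of 34 nt and 35 nt over all their clusters against 38 to 43 nt in the other 10. In those 10 libraries the commonest width was 58 nt, shared by 7.91% to 18.3% of clusters, while a width of 59 nt was far rarer (between 14 and 102 clusters a library). In the bio2 libraries 0.186% and 0.0666% of clusters were 58 nt wide. The tested differences are therefore given with and without the bio2 pair. Of 7 liver genes (ALB, APOA1, APOB, AFP, TF, SERPINA1 and FGB), 6 had an exonic site in at least 2 libraries and APOA1 had a site in 1 library.

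NFAT5 (ENSG00000102908, chr16:69565094-69704666, plus strand, hg38) has a 3' UTR of 8303 nt in its MANE Select transcript of 15 exons, against a median of 1196 nt over 17791 3' UTRs of at least 100 nt. Of its 29 sites, 20 lay in the 3' UTR, 5 in the coding sequence and 4 in introns, and none lay in the 5' UTR. IGF2BP1 had clusters at 23 of the 29 sites, IGF2BP3 at 14, IGF2BP2 at 13, WDR4 at 9 and METTL1 at 8. IGF2BP1 was the sole protein at 10 sites, whereas METTL1 and WDR4 together were the sole proteins at 3, all of them intronic. The IGF2BP1 libraries were the largest, with 14502 and 15701 clusters against 4581 to 9765 in the others. The share of sites with IGF2BP1 alone over the series is not given here, so nothing is read from this count. A total of 8 sites had both an IGF2BP and a METTL1 or WDR4 cluster, 18 had IGF2BP clusters alone and none was found in all 12 libraries.

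Counts of NFAT5 clusters per library ran from 5 to 24. IGF2BP1 had 19 and 24, IGF2BP2 had 7 and 13, IGF2BP3 had 12 and 12, the bio2 IGF2BP3 pair had 7 and 5, METTL1 had 6 and 5, and WDR4 had 7 and 7. Scaled to 10000 clusters of the library, these were 16.2 ± 2.01 (SD, n = 6) for IGF2BP without bio2, 9.58 ± 1.78 (SD, n = 2) for bio2 and 7.41 ± 1.36 (SD, n = 4) for METTL1 and WDR4. The 6 IGF2BP libraries outside bio2 lay between 13.1 and 18.6 and the METTL1 and WDR4 libraries between 5.78 and 9.07. The bio2 values were 10.8 and 8.32, the latter within the METTL1 and WDR4 range. The scaling used all clusters, and METTL1 and WDR4 libraries had a smaller part of theirs in 3' UTRs. These numbered 1274 to 1805 of 6615 to 9765 clusters, against 1873 to 6423 of 4581 to 15701 in the 6 IGF2BP libraries. Counts scaled to 3' UTR clusters were not compared, so nothing is read from the separation.

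Of 25 exonic NFAT5 sites, 19 were found in at least 2 libraries, where the share over all 17030 exonic sites of protein-coding genes was 55.1%. Clusters of all 5 proteins met at 6 of the 25, where the share over all exonic sites was 4.82%. An IGF2BP and a METTL1 or WDR4 library met at 8 of the 25, against 20.3% of all exonic sites. Since the gene was selected on such counts, nothing is read from these comparisons.

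The NFAT5 3' UTR sites fell into 7 groups parted by gaps of more than 300 nt, as the map of NFAT5 clusters shows. The stretch from 3425 to 3876 nt after the stop codon held 4 sites with 31 clusters, that from 4897 to 5156 nt held 4 sites with 14 clusters, and that from 7239 to 7959 nt held 7 sites with 37 clusters. The longest gap between neighbouring sites, 2082 nt, separated the last pair of stretches. Clusters of any library covered 979 nt, or 11.8% of the 3' UTR. Every nucleotide covered by METTL1 or WDR4 (382 nt) was also covered by an IGF2BP library, and these made up 39.0% of the nucleotides covered by IGF2BP.

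**Figure D1:**
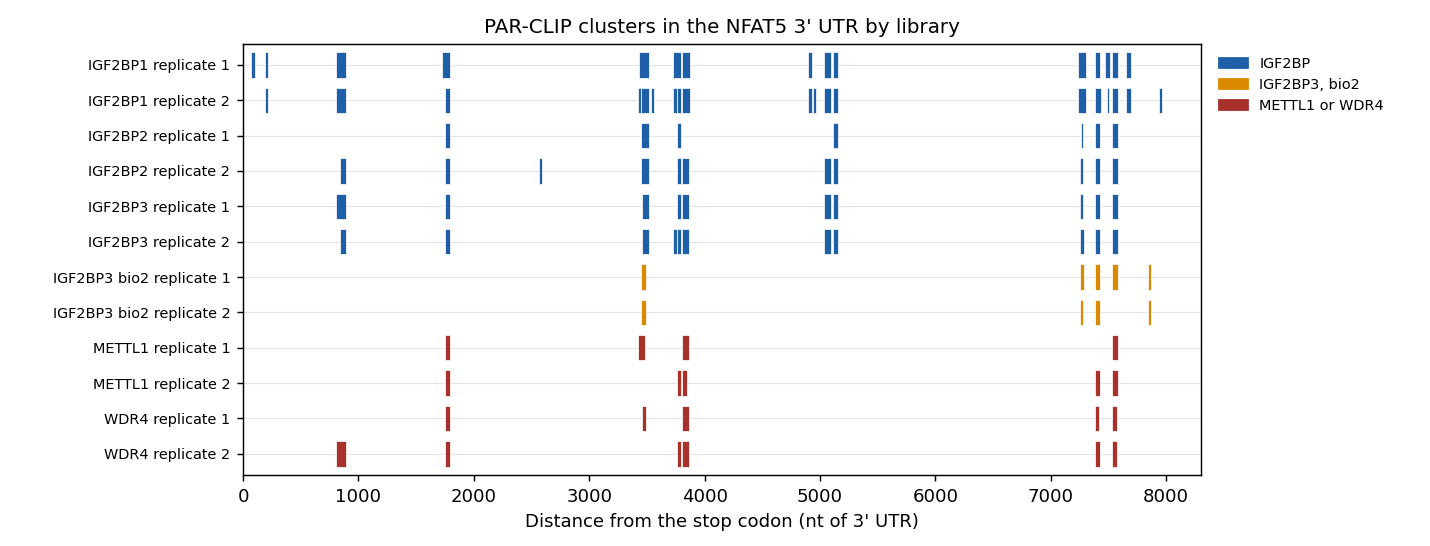
Clusters in the NFAT5 3' UTR, drawn to scale along the distance from the stop codon in nt (horizontal axis) for each of the 12 libraries (rows). The METTL1 and WDR4 clusters lie at 7 of the 20 sites, each of which also has IGF2BP clusters, and no METTL1 or WDR4 cluster lies between 4897 and 5156 nt.

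In the NFAT5 3' UTR 6 sites had clusters of all 5 proteins. The site at 7407 nt (chr16:69703730-69703787, 58 nt) was found in 11 libraries, all but METTL1 replicate 1, and 7 of its 11 clusters were the same 47 nt, from 69703730 to 69703776. The site at 7556 nt (chr16:69703882-69703932, 51 nt) was also found in 11 libraries, all but bio2 replicate 2, and 8 clusters were the same 48 nt. The central 20 nt of its clusters occurred at 3 to 10 places in the genome. The site at 1759 nt (chr16:69698078-69698143, 66 nt) was found in 10 libraries, that is in every library outside bio2 and in neither bio2 library.

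The other 3 stood close together. The site at 3470 nt (chr16:69699776-69699866, 91 nt) was the widest NFAT5 site and was found in all 8 IGF2BP libraries, in METTL1 replicate 1 and in WDR4 replicate 1. It contained a CU dinucleotide run, and the central 20 nt of a cluster there occurred at up to 71096 places in the genome. The site at 3763 nt (chr16:69700079-69700149, 71 nt) was found in 8 libraries, with 7 of its 10 clusters at the same 36 nt. The neighbouring site at 3842 nt (chr16:69700159-69700227, 69 nt) was found in 9 libraries, with 6 of 9 clusters at the same 58 nt and central 20 nt at 2 to 16 places in the genome. Its 69 nt were the sole stretch of at least 60 nt in this 3' UTR that ran from after a G through the next G. Neither of these last sites had a bio2 cluster.

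The other NFAT5 3' UTR site with a writer cluster lay at 850 nt (chr16:69697159-69697244, 86 nt). It was found in both IGF2BP1, both IGF2BP3 and 1 IGF2BP2 library and in WDR4 replicate 2, where the cluster covered the same 86 nt as in both IGF2BP1 libraries and IGF2BP3 replicate 1. Sites with IGF2BP clusters alone included those at 5132 nt (chr16:69701460-69701507), found in the 6 IGF2BP libraries outside bio2 with 48 nt clusters in each, at 5063 nt (chr16:69701386-69701443), found in 5 of them with 58 nt clusters, and at 7272 nt (chr16:69703590-69703657), found in all 8. The site at 7857 nt (chr16:69704194-69704222) was found in both bio2 libraries and in no other.

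Of the remaining 9 sites in the 3' UTR, those at 203, 4914, 7490 and 7676 nt were found in both IGF2BP1 libraries alone. Those at 86, 3548, 4952 and 7948 nt were found in a single IGF2BP1 library, and that at 2578 nt in IGF2BP2 replicate 2. The widths of these 9 sites lay between 22 and 41 nt. The central 20 nt of clusters at 86, 4952, 7490 and 7676 nt occurred at 7, 2, up to 2 and up to 15 places in the genome, and those at the 5 other sites at 1.

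In the NFAT5 3' UTR, sites shared by IGF2BP and a writer subunit were rich in C and U. Pyrimidines made up a median of 84.3% (range 68.1% to 94.4%) of the 7 shared 3' UTR sites, 59.5% (range 35.9% to 85.4%) of the 13 with IGF2BP alone and 55.1% of the whole 3' UTR. The shared sites were also wider, with a median of 69 nt against 35 nt, and were found in more libraries, with a median of 10 against 2. Both differences follow in part from the grouping. A site with IGF2BP alone can have at most 8 libraries and a shared site 12, and joining more clusters can only widen a site. A CAU element lay in 5 of the 7 shared sites and in 8 of the 13 others. In the PLBD2 3' UTR the order of the pyrimidine medians was otherwise. They were 71.0% in the 10 shared sites and 75.0% in the 5 with IGF2BP alone, against 62.8% of the whole 3' UTR. All of these are descriptions of sites and were not tested.

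The 7 sites from 7272 nt on, with 37 clusters, also lay inside ENSG00000260772, a lncRNA annotated on the same strand at chr16:69703065-69704652. Clusters cannot be told apart between the lncRNA and the end of the NFAT5 message. In addition, 17 of the 20 sites lay past the end of the annotated shorter NFAT5 transcripts ENST00000565301 and ENST00000567239 (69697390 and 69697840).

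In the NFAT5 coding sequence, the 4 sites described here, at chr16:69693085-69693114, chr16:69693527-69693548 and chr16:69693990-69694014 in exon 13 and at chr16:69695267-69695302 in exon 14, were found in 1 to 3 libraries each. Both IGF2BP1 libraries accounted for 3 of these 4, joined by bio2 replicate 1 at the first and by an IGF2BP3 library at the exon 14 site.

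Each of the 4 intronic NFAT5 clusters came from 1 library: METTL1 replicate 1 at chr16:69580430-69580487 and chr16:69684622-69684671, WDR4 replicate 1 at chr16:69580683-69580740 and IGF2BP2 replicate 2 at chr16:69638183-69638198. Their central 20 nt occurred at 20511, 15486, 293 and 73130 places in the genome. These are copy numbers of the central 20 nt, not of the reads, which were kept at a limited number of places.

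PLBD2 (ENSG00000151176, chr12:113358566-113391629, plus strand, hg38) has a 3' UTR of 3003 nt in the last of its 12 exons, and its sites were of another kind. Of its 16 sites, 15 lay in this 3' UTR and 1 in the first intron (chr12:113367877-113367916, WDR4 replicate 1, central 20 nt at 87 places in the genome). None lay in the coding sequence. IGF2BP1 and IGF2BP3 each had clusters at 13 sites, IGF2BP2 at 12, WDR4 at 11 and METTL1 at 9. All 10 3' UTR sites with a METTL1 or WDR4 cluster had an IGF2BP cluster as well, and 9 sites had all 5 proteins.

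Counts of PLBD2 clusters per library ran from 8 to 15. IGF2BP1 had 14 and 14, IGF2BP2 had 14 and 15, IGF2BP3 had 15 and 15, the bio2 pair had 11 and 9, METTL1 had 8 and 11, and WDR4 had 15 and 9. Scaled to 10000 clusters of the library they were 19.1 ± 8.37 (SD, n = 6) for IGF2BP without bio2, 16.01 ± 1.46 (SD, n = 2) for bio2 and 12.5 ± 2.30 (SD, n = 4) for METTL1 and WDR4. IGF2BP1, whose libraries were the largest, had the lowest scaled values, at 9.65 and 8.92, and IGF2BP2 replicate 1, whose library was the smallest, had the highest, at 30.6. The groups overlapped.

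Of the 15 exonic PLBD2 sites, 13 were found in at least 2 libraries, 9 had all 5 proteins and 10 had an IGF2BP with a METTL1 or WDR4 library. The shares over all exonic sites are those given for NFAT5, and again nothing is read from them.

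The main feature of the PLBD2 3' UTR was a repeat array. Taking 100 nt windows with at least 3 CCAT, a rule set after the sequence had been seen, the longest array ran from 1388 to 2499 nt after the stop codon (chr12:113390014-113391125, 1112 nt, 37.0% of the 3' UTR) and held 83 of the 110 CCAT of this 3' UTR. No other 3' UTR had more CCAT per 1000 nt (36.6 against a median of 3.85), and 2 had more CAU elements per 1000 nt (47.0 against a median of 11.9). NFAT5 had 14.6 CAU elements per 1000 nt, which 5065 of the 3' UTRs exceeded. Guanosine made up 4.86% of the array and 23.1% of the rest of the PLBD2 3' UTR.

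The array was also repeated at a longer distance. Shifted by 136 nt, 43.4% of its bases matched, against a median of 32.8% over shifts of 1 to 300 nt, and 55.8% matched when shifted by 4 nt. A stretch of 28 nt occurred 3 times in the array, at chr12:113390473-113390500, chr12:113390606-113390633 and chr12:113390742-113390769. It is shown because its copies, identical in sequence, were overlapped by clusters of different libraries.
PLBD2 repeated stretch: ccttccaacCATTtatccaccCATCcaa

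The copy nearest the stop codon was overlapped by 6 libraries, all of them IGF2BP and none METTL1 or WDR4. The middle copy was overlapped by 11 libraries, 7 of IGF2BP and 4 of METTL1 and WDR4, and the last copy by 8, of which 6 were IGF2BP. Clusters that spanned the whole copy came from 6, 6 and 7 libraries in the same order. At the middle copy no METTL1 or WDR4 cluster did so, and those clusters overlapped only a part of it. Clusters that span a copy extend into sequence that differs between copies, but reads of a copy alone could be placed at any of the 3. Another stretch of 21 nt occurred at chr12:113389612-113389632, outside the array, and at chr12:113390562-113390582 and chr12:113390698-113390718 inside it. Its copies were overlapped by 12, 10 and 10 libraries.
PLBD2 second repeated stretch: cctatcCATTtatCATCCATC

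Clusters with their midpoint in the array numbered 99 of the 149 in the 3' UTR (66.4%), and every library had some. In the 6 IGF2BP libraries outside bio2, clusters covered 84.1% to 93.0% of the array, with a mean of 88.9% ± 3.87 (SD, n = 6). In METTL1 and WDR4 they covered 30.1%, 49.2%, 61.6% and 45.3%, with a mean of 46.6% ± 12.97 (SD, n = 4), and in bio2 25.7% and 16.7%. The ranges of these 3 sets did not overlap. Outside the array, 10.5% to 21.6%, 6.03% to 12.1% and 6.56% to 8.14% of the rest of the 3' UTR were covered. There the METTL1 and WDR4 range overlapped both others, while bio2 again lay below the other IGF2BP libraries. The array was delimited after the clusters had been seen, so these values carry no test.

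**Figure D2:**
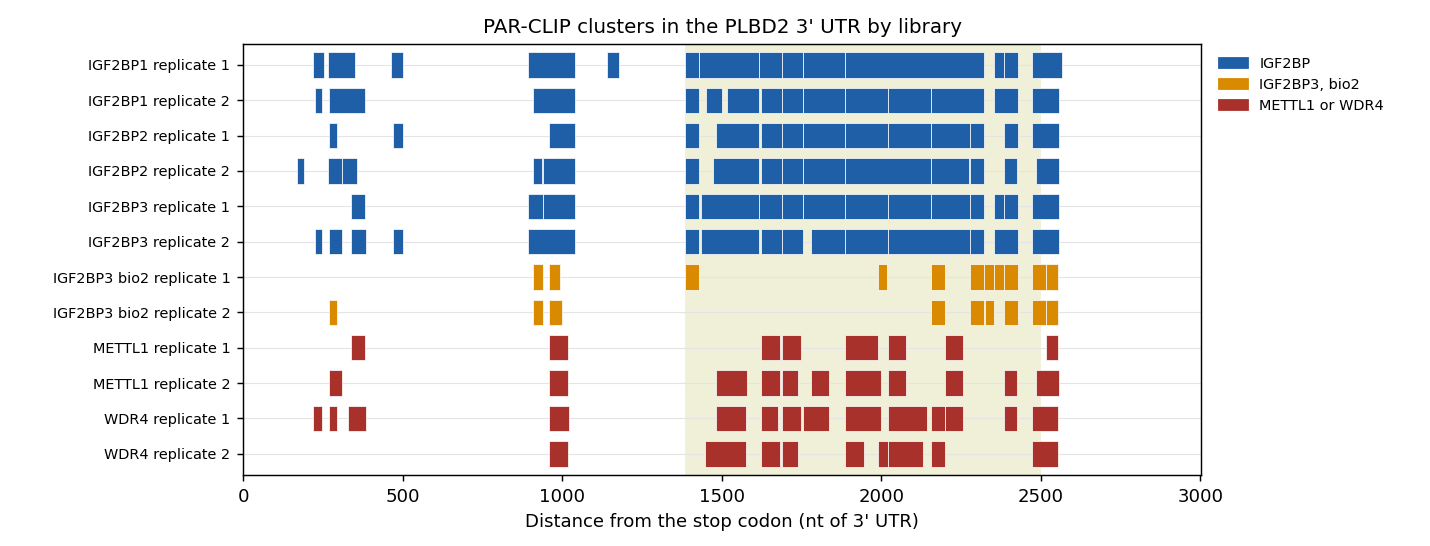
Clusters in the PLBD2 3' UTR, drawn to scale along the distance from the stop codon in nt (horizontal axis) for each of the 12 libraries (rows), with the repeat array from 1388 to 2499 nt shaded. Clusters of the 6 IGF2BP libraries outside bio2 nearly fill the array, whereas those of METTL1, WDR4 and bio2 leave much of it uncovered.

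In the array, cluster starts followed guanosines more often than cluster ends fell on them. The array holds 54 guanosines, and its 99 clusters had 25 different starts and 42 different ends. RNase T1 cuts after G, and a G stood just before the start in 95 of the 99 clusters. That reading of the starts was chosen because the base before them is then mostly G, so nothing is read from this count. Of the 99, 55 ended in a G and 69 had no G other than a final one. Over both whole genes the base before the start was G in 98.4% of NFAT5 and 97.3% of PLBD2 clusters, against 88.7% over the series. In 69.4% of NFAT5 and 54.7% of PLBD2 clusters there was no G before the last base, against 44.3% over the series. The last base was G in 67.7% of NFAT5 and 60.7% of PLBD2 clusters, against 65.6% over the series.

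Neighbouring PLBD2 sites abutted: 7 of the gaps between neighbouring 3' UTR sites were of 0 nt, against none in NFAT5. Joining clusters across gaps of up to 10 nt left 9 PLBD2 sites in place of 16, and 5 in place of 10 shared by IGF2BP and a writer subunit. For NFAT5 the same rule gave 27 sites in place of 29, and 7 in place of 8 shared. The number of PLBD2 sites thus depends on the joining rule.

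Stretches with few guanosines were compared by length. In the PLBD2 3' UTR 8 stretches of at least 60 nt ran from after a G through the next G, and all 8 had a cluster of all 6 IGF2BP libraries outside bio2 and of at least 2 METTL1 or WDR4 libraries, counting at least 10 nt of overlap. The bio2 libraries had clusters at 2 of the 8, and their widest PLBD2 cluster was 45 nt. In the NFAT5 3' UTR 33 stretches were of 20 to 29 nt, and 7 of these had a cluster of any library and none of METTL1 or WDR4, whereas 7 of 12 stretches of 30 to 44 nt and 5 of 5 of 45 to 59 nt had a cluster. In PLBD2 5 of 7 stretches of 20 to 29 nt had a cluster, 3 of them one of METTL1 or WDR4, as did 4 of 5 stretches of 30 to 44 nt, 2 of them with METTL1 or WDR4. Whether fragment length, sequence or the protein sets which stretches have clusters was not tested.

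**Figure D3:**
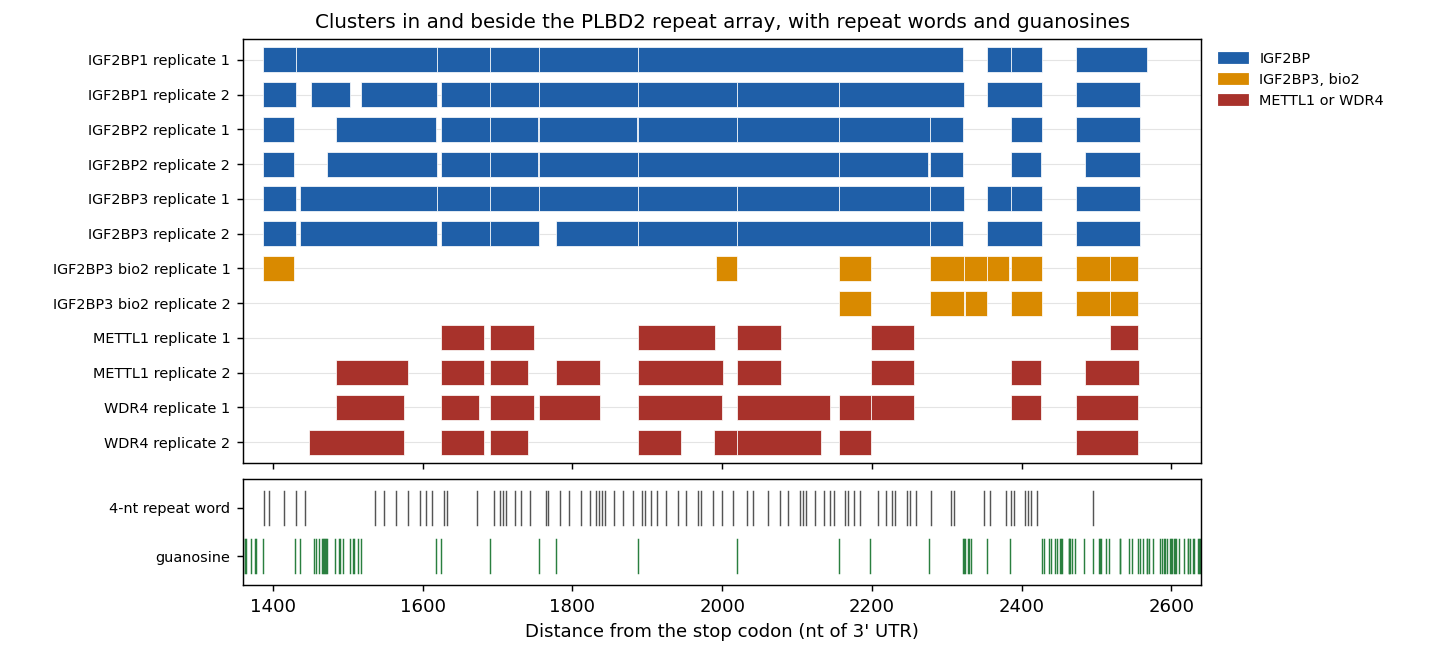
Clusters of each library (rows) in and beside the PLBD2 repeat array, along the distance from the stop codon in nt, with ticks underneath for each CCAT word and each guanosine. Starts follow a guanosine in 95 of the 99 clusters of the array, whereas 55 of the 99 end in one.

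Edges shared between the proteins were counted next. The 150 PLBD2 clusters had 43 different starts, of which 16 were used by both an IGF2BP and a METTL1 or WDR4 library, and 70 different ends, of which 7 were. For NFAT5 the numbers were 9 of 41 starts and 9 of 53 ends. In PLBD2, 16 of 42 METTL1 and WDR4 clusters in the 3' UTR were exactly 58 nt wide and none of the IGF2BP clusters was. Exactly 58 nt were also the width of 4 of 20 METTL1 and WDR4 clusters and of 11 IGF2BP clusters in the NFAT5 3' UTR. As given above, 58 nt was the commonest width in the 10 libraries outside bio2 over the whole series, and its part in these ends was not tested.

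The widest PLBD2 site, at 2105 nt (chr12:113390514-113390948, 435 nt), held 37 clusters of all 12 libraries. IGF2BP1 replicate 1 had a single cluster of 434 nt there, which 82 clusters of the series exceeded in width. The other libraries each had more than 1 cluster there, of 28 nt or more. Clusters of METTL1, WDR4 and bio2 left parts of the stretch uncovered. The METTL1 and WDR4 clusters nearest the stop codon all began at 113390514, like those of the 6 IGF2BP libraries outside bio2, and ended at 113390616 and 113390626 in METTL1 and at 113390625 and 113390571 in WDR4. The central 20 nt of clusters in this site occurred at up to 84 places in the genome.

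Upstream of the array, the site at 967 nt (chr12:113389519-113389667, 149 nt) was found in all 12 libraries and held a further 13 CCAT. The central 20 nt of a cluster there occurred at up to 160 places in the genome. The site at 2520 nt (chr12:113391099-113391193, 95 nt), which straddles the downstream end of the array, was also found in all 12 libraries. Every central 20 nt of this site occurred once in the genome. Its window held a run of A with 1 CAU element in the whole site. Thus 3 of the 16 PLBD2 sites were found in all 12 libraries, and none of the 29 NFAT5 sites.

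Within the array, the sites at 1654, 1723 and 1821 nt (chr12:113390245-113390316, chr12:113390317-113390381 and chr12:113390382-113390513) were found in 10, 10 and 8 libraries. All 6 IGF2BP libraries outside bio2 had the 3 sites, and neither bio2 library had any of them. The site at 1524 nt (chr12:113390057-113390244, 188 nt) was found in 9 libraries, without METTL1 replicate 1 and bio2, and that at 2391 nt (chr12:113390981-113391053, 73 nt) in 10, without METTL1 replicate 1 and WDR4 replicate 2. The site at 1408 nt (chr12:113390013-113390056, 44 nt), found in all 6 IGF2BP libraries outside bio2 and in bio2 replicate 1, had no METTL1 or WDR4 cluster. The site at 2338 nt (chr12:113390949-113390980) was found in both bio2 libraries alone.

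Of the sites nearer the stop codon, those described here at 179, 236 and 482 nt were found in 1, 4 and 3 libraries and that at 1159 nt in IGF2BP1 replicate 1, where the central 20 nt occurred at 212 places in the genome. Sites past the end of the shorter annotated transcript ENST00000545182 (113389238), the array included, numbered 11 of the 15 in the 3' UTR. A central 20 nt found more than once in the genome was held by 57 of the 150 PLBD2 clusters and by 60 of the 124 NFAT5 clusters.

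Position, width and CAU elements of the 3' UTR clusters did not enter the choice of the genes and were compared between the 8 IGF2BP and the 4 METTL1 and WDR4 libraries. The mean difference was set against all 495 ways of assigning the libraries (exact permutation test, two-sided, smallest possible p = 0.00202), with Benjamini-Hochberg adjustment over the 6 tests. None of the 6 passed an adjusted p of 0.05. A library's value rests on few clusters, from 4 to 19 in the NFAT5 3' UTR and 8 to 15 in that of PLBD2.

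For NFAT5 the median cluster position was 4914 and 4914 nt after the stop codon in IGF2BP1, 5132 and 3836 nt in IGF2BP2, 4450 and 3836 nt in IGF2BP3, 7401 and 7334 nt in bio2, 3644 and 3826 nt in METTL1 and 3836 and 3808 nt in WDR4. The means were 5227 ± 1406 nt (SD, n = 8) for IGF2BP and 3779 ± 90.2 nt (SD, n = 4) for METTL1 and WDR4 (difference 1448 nt, exact permutation p = 0.0647, adjusted p = 0.388). No METTL1 or WDR4 library lay above the lowest IGF2BP library, with which WDR4 replicate 1 was level. Without bio2 the difference was 735 nt (exact permutation p = 0.0429, adjusted p = 0.0857). Both bio2 medians fell in the stretch shared with the annotated lncRNA, and no run left the clusters of that stretch out.

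The median width of NFAT5 3' UTR clusters was 44.4 ± 5.07 nt (SD, n = 8) in IGF2BP and 46.8 ± 4.50 nt (SD, n = 4) in METTL1 and WDR4 (difference -2.31 nt, exact permutation p = 0.485, adjusted p = 0.761), and without bio2 the difference was -0.0833 nt. CAU elements lay in 53.3% ± 14.4 (SD, n = 8) and 65.4% ± 7.12 (SD, n = 4) of them (difference -12.1 percentage points, exact permutation p = 0.153, adjusted p = 0.461). Without bio2 the difference was -5.20 points, and with clusters widened by 10 nt on each side it was -0.597 points. The lowest shares, 40.0% and 25.0%, were those of bio2, from 5 and 4 clusters. Over all 3' UTR clusters of the series the order was otherwise, with 73.7% and 75.8% in bio2, 44.02% to 65.3% in the other IGF2BP libraries and 37.4% to 40.9% in METTL1 and WDR4. Windows of 30 nt held a CAU element in 33.4% of the NFAT5 3' UTR and in 28.8% of all 3' UTRs. The median NFAT5 cluster was wider than 30 nt in every library, so the windows are no matched baseline for the clusters.

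For PLBD2 the median cluster position was 1589 and 1690 nt in IGF2BP1, 1772 and 1657 nt in IGF2BP2, 1821 and 1657 nt in IGF2BP3, 2300 nt in both bio2 libraries, 1829 and 1807 nt in METTL1 and 1758 and 1916 nt in WDR4. The means were 1848 ± 287.9 nt (SD, n = 8) and 1827 ± 66.2 nt (SD, n = 4), which differed by less than the spread between libraries (exact permutation p = 0.909, adjusted p = 0.909). Without bio2 the direction turned, and IGF2BP minus METTL1 and WDR4 was -129.8 nt (exact permutation p = 0.0429, adjusted p = 0.0857).

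The median width of PLBD2 3' UTR clusters was 58 nt in each METTL1 and WDR4 library. In IGF2BP it was 68.5 and 93.5 nt (IGF2BP1), 73 and 64 nt (IGF2BP2), 72 and 66 nt (IGF2BP3) and 38 and 40 nt (bio2), so that the bio2 values lay below and all other IGF2BP values above those of METTL1 and WDR4. The mean of the IGF2BP libraries was 64.4 ± 18.1 nt (SD, n = 8; exact permutation p = 0.507, adjusted p = 0.761), and the difference was 6.38 nt with bio2 and 14.8 nt without it (exact permutation p = 0.0143, adjusted p = 0.0857). CAU elements lay in 88.9% ± 4.62 (SD, n = 8) of IGF2BP and 90.2% ± 12.2 (SD, n = 4) of METTL1 and WDR4 clusters (difference -1.28 percentage points, exact permutation p = 0.790, adjusted p = 0.909), and without bio2 the difference was -1.61 points. The PLBD2 3' UTR held a CAU element in 52.6% of 30 nt windows, which were narrower than the median cluster of every library and so are no matched baseline.

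**Figure D4:**
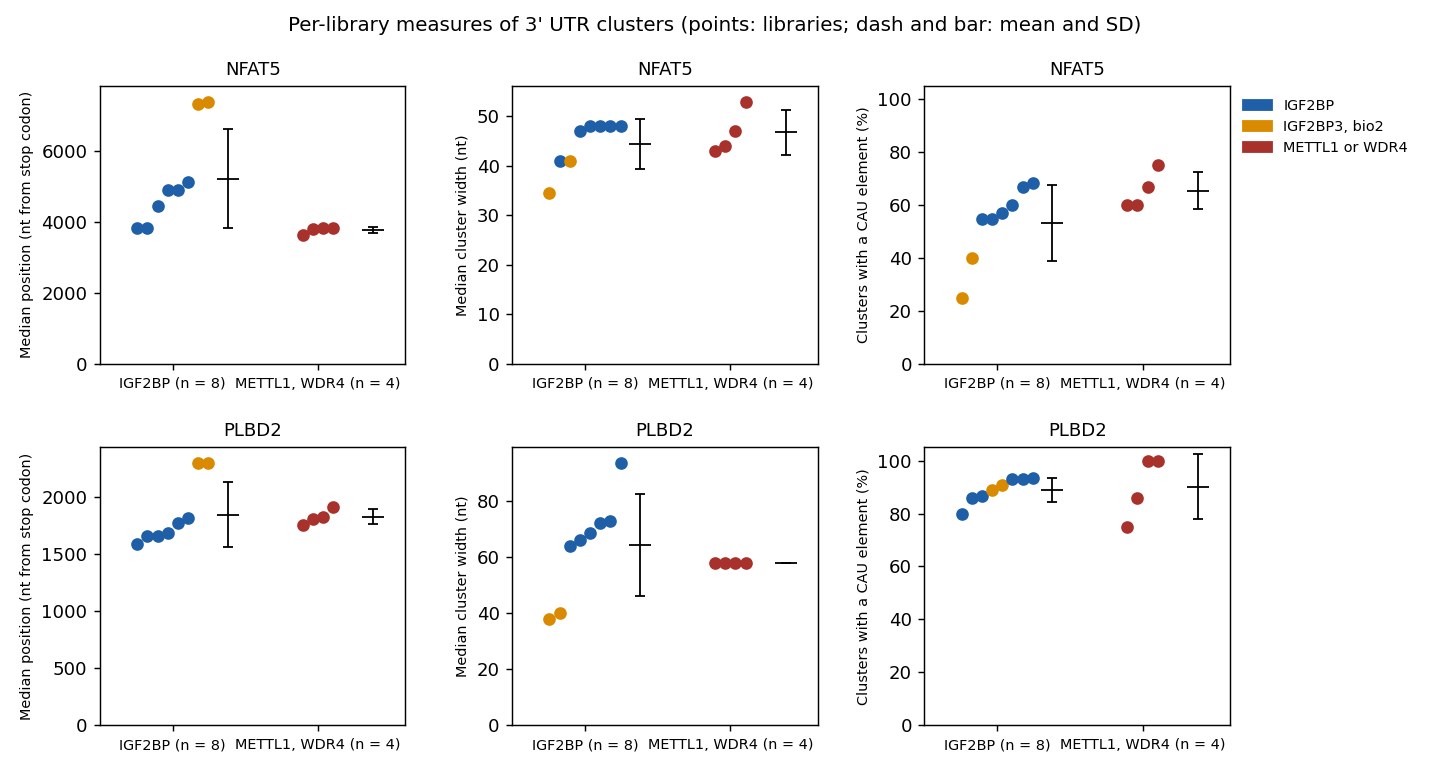
Median position (nt from the stop codon), median width (nt) and share of clusters with a CAU element (%) of the 3' UTR clusters of NFAT5 (upper row) and PLBD2 (lower row), with a point per library and the mean and SD of the 8 IGF2BP and 4 METTL1 and WDR4 libraries. The bio2 points (orange) lie farthest from the stop codon in both genes, at 7401 and 7334 nt for NFAT5 and 2300 nt for PLBD2.

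Taking CAU elements singly, clusters of any library covered 22 of the 121 in the NFAT5 3' UTR (18.2%) and 127 of the 141 in that of PLBD2 (90.1%). Of all nucleotides, such clusters covered 11.8% of the NFAT5 3' UTR and 51.1% of that of PLBD2. Covered parts of the NFAT5 3' UTR were 30.1% C and 5.72% G, against 16.8% C and 17.9% G in the uncovered parts. For PLBD2 they were 41.4% C and 7.23% G against 28.1% C and 25.8% G. U made up 41.9% of the covered and 36.1% of the uncovered NFAT5 3' UTR, and 28.3% and 27.5% for PLBD2. PAR-CLIP needs U for the crosslink and RNase T1 leaves G-poor fragments whole, and the part of both in these values was not tested.

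Relatives and pathway partners of the 2 genes were listed for context, and an exonic site in at least 2 libraries was found in 21.4% of all 20046 annotated protein-coding genes. Of the other NFAT family genes, NFATC3, a calcineurin-dependent member, had 15 exonic sites, 8 of them in at least 2 libraries, NFATC2 had 1 cluster, and NFATC1 and NFATC4 had none. Of 14 genes of the osmotic stress response, 5 had a site in at least 2 libraries (35.7%), namely SLC38A2 and SLC6A6, which import amino acids and taurine, SLC5A3, which imports myo-inositol, the chaperone gene HSPA4L and the kinase gene WNK1. SLC38A2 had 16 exonic sites with 57 clusters. AKR1B1, the aldose reductase that makes sorbitol, and the 7 genes HSPA1A, HSPA1B, S100A4, AQP1, AQP2, MAPK14 and CDK5 had no exonic cluster.

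Of 36 genes for lysosomal proteins, 18 had an exonic site in at least 2 libraries (50.0%). The most sites were those of TPP1 (9 sites, 35 clusters), a lysosomal peptidase, and LAMP2 (7 sites, 34 clusters in all 12 libraries), a protein of the lysosomal membrane. CTSB and CTSD, which encode cathepsins, and PPT1, a thioesterase, had 5 each. PLBD1, the paralogue of PLBD2, had none. The median over the list was 1 exonic site, against 15 for PLBD2. Since PLBD2 was selected on such counts, nothing is read from this difference. How far these counts follow the level of each message in HepG2 was not tested, since no expression table was used here.

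The genes most like NFAT5 in exonic clusters per 10000 over the 12 libraries, among 983 other genes with at least 5 exonic sites, were ATXN1L (Pearson r = 0.94), PLEKHG2 (0.93), PAICS (0.93), FOXRED2 (0.92) and PPARGC1A (0.91). For PLBD2 they were ZFP36L1 (0.90), CALR (0.86), FBXO33 (0.83), TMEM127 (0.82) and STK4 (0.81). The points are libraries that share their totals between genes, and the values are descriptions.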

How the data were processed

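PAR-CLIP clusters of 12 HepG2 libraries were analysed. Per the labels and the study's methods, the authors filtered and collapsed reads, mapped those over a minimum length to hg38 with Bowtie allowing mismatches and a limited number of places, and called clusters with PARalyzer in each library separately; versions and caller settings are not given in the sources used here. The deposited files list chromosome, start, end and strand of each cluster, read here as counted from 1 with the end included, because the base before the start is then mostly G.

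Clusters were placed by their midpoint in the MANE Select transcripts of GENCODE release 44. The central 20 nt of each cluster was counted on both strands of the main chromosomes. Groups came from sample titles. Tests are exact permutation tests over libraries (Python 3.11.15, numpy 2.4.6, pysam 0.24.0), and the merging and test code was tested on simulated data. Replicates were separately seeded plates, so p-values measure the spread between such libraries. The 2 libraries of a protein were treated as separate units, so p-values do not measure the spread between proteins. Depth is unknown, and the number of clusters limits precision. Members, context lists and tests were chosen with earlier results of these data known, sites described singly by number of proteins, libraries, width, copy number and place outside the 3' UTR. Alternatives changed the merging rule, overlap, multi-copy clusters, libraries, unit of replication, replicate block, position and width measure and the width searched for CAU elements. Splits inside and outside the repeat array were added after seeing the data. In addition, 1 coding NFAT5 site and 1 PLBD2 3' UTR site enter the counts but are not described singly here.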

Additional observations from a re-analysis of the deposited data

Results flagged for a closer look

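Among the IGF2BP and the METTL1 and WDR4 libraries, 11 sets of values of the 6 tested measures were searched for a library far from the others of its set, of which chance marks about 1 in 20. METTL1 replicate 1 stood apart in the median position of its NFAT5 3' UTR clusters, at 3644 nt after the stop codon against 3808 to 3836 nt in the 3 other METTL1 and WDR4 libraries. Its value rests on 4 clusters, and it was the METTL1 or WDR4 library without a cluster at the site at 7407 nt.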

How the results depend on the processing

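None of the 6 tests passed under any alternative run. With the protein as the unit none could pass, because 5 proteins allow too few arrangements. In that run the NFAT5 difference in position had an exact permutation p of 0.2. The PLBD2 difference in position (IGF2BP minus METTL1 and WDR4, 20.8 nt) turned to -36.3 nt with the protein as the unit, -129.8 nt without bio2, -49.4 nt with means over clusters and -264.7 nt for clusters outside the repeat array, and lay between -43.7 and 57.8 nt when single libraries were left out. That in width (6.38 nt) turned to -8.44 nt for clusters whose central 20 nt occur once in the genome and -2.50 nt outside the array. That in CAU element share (-1.28 percentage points) turned to 2.52 with such clusters and 1.34 with clusters widened by 10 nt, and lay between -6.33 and 2.00 when single libraries were left out. For NFAT5 the difference in position (1448 nt) was 638.6 nt with means over clusters and 2146 nt for clusters whose central 20 nt occur once in the genome, and that in CAU element share (-12.1 points) was -3.11 with such clusters and -0.597 with clusters widened by 10 nt. The cause was not tested in any of these cases, and the directions of the 6 differences were kept under all other alternatives run. The PLBD2 position turned without WDR4 replicate 1 or either bio2 replicate, and the CAU element share without METTL1 replicate 2 or WDR4 replicate 2. With clusters whose central 20 nt occur once in the genome, 4 NFAT5 sites in place of 8 were shared by IGF2BP and a writer subunit; merging across gaps of up to 10 nt left 9 PLBD2 sites, 5 of them shared.

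With the replicate block (permutation within replicate number) the differences were the same by construction, 1448 nt, -2.31 nt and -12.1 points for NFAT5 and 20.8 nt, 6.38 nt and -1.28 points for PLBD2, and the lowest adjusted p was 0.48. The labels tie equal numbers to nothing shared, and over genes with at least 5 exonic sites the deviations of equally numbered libraries correlated between -0.07 and 0.07 in 15 pairs of groups.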

Other observations

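Besides the dinucleotide run at 3470 nt, the NFAT5 3' UTR held a tandem duplication of 28 nt at chr16:69700390-69700417 and chr16:69700419-69700446, each copy with 1 CAU element, and no library had a cluster at either copy. It lay downstream of the site at 3842 nt, which was found in 9 libraries.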
